A study of Rattus norvegicus with 6 samples.

Results

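The transcripts of 10 purinergic P2 receptors, the cell-surface receptors for extracellular nucleotides, were examined in the dorsal root ganglion (DRG) of rats with chronic constriction injury (CCI) of the sciatic nerve and of sham-operated rats. The genes were P2rx2, P2rx3, P2rx4, P2rx5, P2rx6 and P2rx7, which encode P2X subunits, and P2ry1, P2ry2, P2ry6 and P2ry12, which encode P2Y receptors. They were taken by symbol from the 43350 gene rows of the deposited table, with a protein-coding row taken first and then the row with the largest summed count, and all 10 were found. Each of the 10 also passed the filter of a mean of at least 0.5 FPKM, fragments scaled to transcript length and library size, over the 6 libraries.

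Both groups were male Sprague-Dawley rats sampled 11 days after surgery, with 3 rats in the CCI group and 3 in the sham group. In CCI rats loose ligatures were placed around the sciatic nerve, and in sham rats the nerve was exposed and left unligated, although the labels list no treatment for them. Total RNA of the ipsilateral L4 to L6 DRG was depleted of ribosomal RNA and sequenced in paired ends, from 1 rat per library according to the methods, whereas the library protocol in the labels speaks of a pooled sample. According to the methods, surgery was allotted at random, rats that behaved as awaited in each group were kept, and the 3 sequenced per group were drawn from these at random.

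P2X receptors are cation channels that ATP opens and that are built of several subunits, whereas P2Y receptors couple ATP, ADP, UTP or UDP to G proteins. In the DRG, channels containing P2X3 carry ATP responses of small sensory neurons, and several other P2 receptors are known from satellite glia, Schwann cells and macrophages. Extracellular nucleotides leave cells through vesicles and large-pore channels and are broken down to adenosine by ectonucleotidases. Bulk RNA from a whole ganglion holds all of these cells, so fewer cells of a type and less RNA per cell cannot be told apart.

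Between 75423546 and 87615743 counts were assigned to gene rows in each library, and 3 counts corresponded to 0.0342 to 0.0398 CPM (reads relative to the library total). Marker sums described the tissue and the surgery groups. The 7 neuronal markers summed to 2590 to 3340 FPKM and the 5 satellite glia markers to 996 to 1110 FPKM across the 6 libraries. Of the endothelial markers Cdh5 was at 3.69 to 7.26 FPKM, whereas Cldn5 had 0 counts in every library and Pecam1 had no row. The 5 injured neuron markers, Atf3 and Gal among them, summed to 218 to 401 FPKM in CCI and to 62.8 to 70.5 FPKM in sham libraries, and all 5 were called higher. Macrophage markers summed to 26.9 to 37.1 FPKM in CCI and 19.7 to 24.2 FPKM in sham libraries, with 3 of 8 called higher. Those 3, Cd68, Csf1r and Cx3cr1, were also picked by the study from these libraries for follow-up. Skeletal muscle markers stood apart in 1 library, sham 1, where they summed to 114 FPKM against 3.78 to 16.8 FPKM in the other 5 libraries.

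P2rx3 was by far the most abundant P2 receptor transcript of the ganglion, and P2rx6 was the only one of the 10 that passed the limits for a change after CCI, being lower in every CCI library. In the quasi-likelihood test of edgeR, a gene was called when its unadjusted p was below 0.05 and its log2 fold change reached 0.58 in either direction. By these limits 0 of the 10 receptors were called higher, 1 was called lower and 9 were not called, against 2.57% of the 26663 rows tested called higher, 1.26% called lower and 3.83% called either way. An unadjusted p under 0.05 without a limit on the fold was reached by 4 receptors, compared with 10.7% of all rows, and the 4 were P2rx3, P2rx5, P2rx6 and P2ry1, each of them on the list of neuronal receptors. In the 6 fits that left out 1 library, P2rx6 kept that p in 6 and P2rx3 in 5. P2rx5 and P2ry1 kept it in only 2 of the 6 each. After Benjamini-Hochberg adjustment over all rows edgeR called 0 of the 10 receptors, against 0.0938% of all rows. DESeq2 called 1 of the 10, but it also called far more rows, 751 of 26663 against 25 in edgeR. Every CCI library lay above every sham library for 1 of the 10 receptors and below for 2, against 8.63% and 8.70% of all rows. The median log2 fold change was -0.10 for the 10 receptors, -0.19 for the 5 neuronal receptors, -0.10 for the 4 immune or glial receptors and 0.01 for all rows tested.

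**Figure D1:**
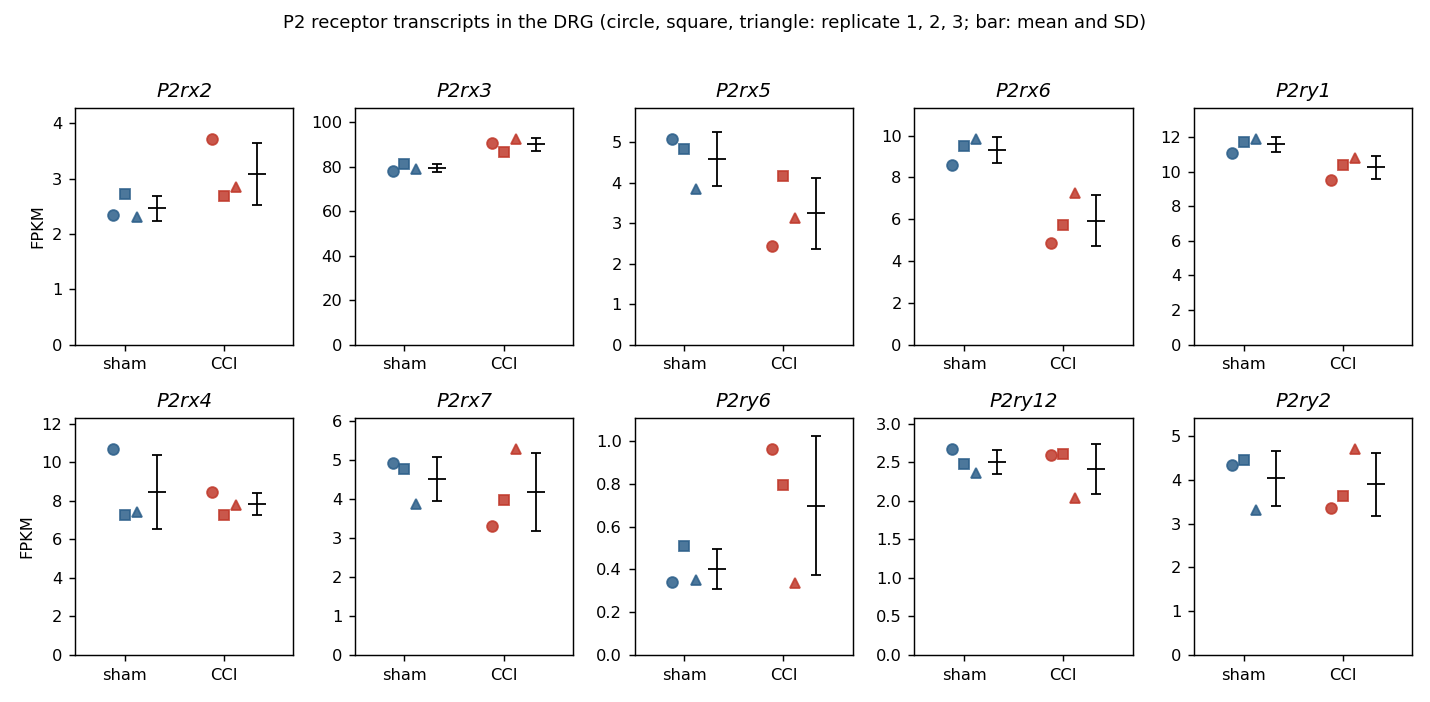
Level of each receptor in FPKM in the 3 sham (blue) and 3 CCI (red) libraries, with the mean and SD beside each group and an axis from 0 in every panel. The P2rx6 points of the CCI libraries lie between 4.84 and 7.25 FPKM, all below the sham points at 8.60 to 9.85 FPKM, while the points of P2rx4, P2rx7, P2ry2, P2ry6 and P2ry12 overlap.

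On the FPKM scale, which divides by transcript length and so allows genes to be compared, P2rx3 averaged 84.9 FPKM over the 6 libraries. This placed P2rx3 at rank 350 among 18508 protein-coding rows with counts and at 7.79 times the next receptor, P2ry1. The order continued with P2ry1 at 10.9, P2rx4 at 8.15, P2rx6 at 7.62, P2rx7 at 4.36, P2ry2 at 3.97, P2rx5 at 3.92, P2rx2 at 2.77, P2ry12 at 2.46 and P2ry6 at 0.550 FPKM. The ranges of neighbours in this order overlapped for all steps except the first, from P2rx3 to P2ry1, and the last, from P2ry12 to P2ry6. P2rx4 and P2rx6 differed by a ratio of 1.07 and P2ry2 and P2rx5 by a ratio of 1.01, so the order within those pairs is not larger than the spread between libraries. The length worked back from the values was 11550 bases for P2rx7 and 1379 to 4294 bases for the other receptors. In counts P2rx7 stood above P2ry1 in every library, so its place in the order rests on that length.

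P2rx3 encodes the subunit that marks small, mostly nonpeptidergic nociceptors, and its row lies at chr3:72403993-72445775 on the minus strand of the genome the authors call V101. Its level was 90.9, 86.9 and 92.7 FPKM in CCI 1, 2 and 3 and 78.0, 81.5 and 79.2 FPKM in sham 1, 2 and 3. Every CCI library therefore lay above every sham library, an order found for 8.63% of all rows. The means were 90.2 ± 2.97 FPKM in the CCI group and 79.6 ± 1.75 FPKM in the sham group (SD, n = 3 each). The log2 fold change was 0.16 (SE 0.05, 95% confidence interval 0.04 to 0.28) with an unadjusted p of 0.0157, which is under the limit for p but far short of that for the fold, and the adjusted p (edgeR's quasi-likelihood test, Benjamini-Hochberg) was 0.325. The 5 markers of nonpeptidergic nociceptors, the neurons in which P2rx3 is best known, summed to at most 124 FPKM in CCI and 115 FPKM in sham libraries with overlapping groups, and 0 of 5 were called. Ret, at 67.5 to 86.0 FPKM, made up most of that sum. The 5 did not move together, with 2 positive and 3 negative log2 fold changes. Mrgprd, at -0.20 (unadjusted p = 0.0152), was lower in every CCI library than in every sham library, an order found for 8.70% of all rows.

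P2rx6 encodes a subunit that forms channels poorly alone and joins P2X2 or P2X4 subunits, and its row lies at chr11:87435185-87445219 on the plus strand. It measured 4.84, 5.70 and 7.25 FPKM in CCI 1, 2 and 3 and 8.60, 9.48 and 9.85 FPKM in sham 1, 2 and 3. The groups did not overlap, with every CCI library below every sham library, which held for 8.70% of all rows. From a sham mean of 9.31 ± 0.644 FPKM to a CCI mean of 5.93 ± 1.22 FPKM (SD, n = 3 each), P2rx6 fell by 0.67 on the log2 scale (SE 0.15, 95% confidence interval -1.04 to -0.30). The unadjusted p was 0.00402, and the adjusted p (edgeR's quasi-likelihood test, Benjamini-Hochberg) was 0.217. DESeq2 gave an adjusted p of 0.00446, and without CCI 1, the library with the lowest P2rx6, the log2 fold change was -0.54 and the call was lost.

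The fall of P2rx6 was set beside the marker lists of the cells that could hold it. Of the 7 neuronal markers 0 were called, 4 had a positive and 3 a negative log2 fold change, and their sum was 3170 to 3340 FPKM in CCI and 2590 to 3070 FPKM in sham libraries. The members of that list did not move together, with Tubb3 at 0.31 (unadjusted p = 0.00832) and Prph at 0.25 (unadjusted p = 0.0203) but Snap25 at -0.39 (unadjusted p = 0.0411). Injured neuron markers were likewise higher in sum in the CCI group, with 401 FPKM in CCI 1, where P2rx6 was lowest, 247 FPKM in CCI 2 and 218 FPKM in CCI 3, where P2rx6 was highest within the CCI group. Skeletal muscle also expresses P2rx6, and all 5 muscle markers were called lower in CCI, with the highest sums in sham 1 and sham 3, at 114 and 16.8 FPKM. The P2rx6 level of sham 1 was the lowest of the sham libraries, and without sham 1 the log2 fold change was -0.73 (unadjusted p = 0.00721). The parts of muscle content and of neuronal injury in the P2rx6 result were not tested.

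Short stretches upstream of the transcription starts are shown for P2rx3 and P2rx6, the receptors that carried the largest level and the called change. Of the 10 receptor genes 6 matched the RefSeq promoter table of build GRCr8, a later build than that of the deposited coordinates, with 7 promoters between them, P2rx3 having 2. The 30 bases before each start are printed 5′ to 3′ on the gene's strand in GRCr8, which for P2rx6 is not that of the deposited row, and capitals mark a GC box or an E-box where one was found.
P2rx3 (first start; chr3:90531316-90531345, minus strand): gatcccaccaccccgaggcccccgtgaatc
P2rx3 (other start; chr3:90529310-90529339, minus strand): gataaaaaggtggtccgCCGCCCtggccct
P2rx6 (chr11:96954204-96954233, minus strand): aggctacatCAGCTGgggtttgggactgag

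The GC box of P2rx3, read on the opposite strand, lay at positions -13 to -8 and the E-box of P2rx6 at -21 to -16, counted back from the start. Over the whole 300-base promoters, on both strands, the AP-1 motif TGANTCA, bound by factors such as ATF3 and JUN, and the CRE motif TGACGTCA had 0 matches in the 7 receptor promoters, against 7.33% and 1.83% of 33469 RefSeq promoters. The E-box CANNTG was found in 5 of the 7 and in 72.1% of all promoters, and the GC box GGGCGG in 4 of the 7 and in 33.1%. These matches describe letters in a window and nothing was read from them about binding.

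The other neuronal receptors shifted less, or less evenly. P2rx5, whose row lies at chr10:59725398-59737126 on the plus strand, encodes a subunit of large sensory neurons that also joins other P2X subunits. P2rx5 measured 2.44, 4.18 and 3.12 FPKM in CCI 1, 2 and 3 and 5.09, 4.83 and 3.84 FPKM in sham 1, 2 and 3. CCI 2 lay above sham 3, so the groups overlapped. Its log2 fold change was -0.52 (SE 0.21, 95% confidence interval -1.03 to -0.00, unadjusted p = 0.0494), short of the fold limit. Without CCI 2 it was -0.74 (unadjusted p = 0.00750) and without sham 3 -0.62 (unadjusted p = 0.0395), and P2rx5 was then called lower, whereas without CCI 1 it was -0.35 (unadjusted p = 0.117). Directly downstream, at chr10:59738544-59739511, an assembled row of no stated strand also carried the P2rx5 symbol, to which 90, 121 and 174 reads of CCI 1, 2 and 3 were counted, against 161, 117 and 82 reads of sham 1, 2 and 3. That second row followed no group order and was not added to P2rx5.

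P2ry1 encodes a Gq-coupled ADP receptor of sensory neurons, at chr2:151314818-151320319 on the plus strand. Its levels were 9.51, 10.4 and 10.8 FPKM in CCI 1, 2 and 3 and 11.1, 11.7 and 11.9 FPKM in sham 1, 2 and 3. All 3 CCI libraries were below all 3 sham libraries by a narrow margin, an order found for 8.70% of all rows. The group means were 10.2 ± 0.661 FPKM in CCI and 11.6 ± 0.448 FPKM in sham libraries (SD, n = 3 each). A log2 fold change of -0.19 resulted (SE 0.07, 95% confidence interval -0.36 to -0.02, unadjusted p = 0.0366), and the interval lies inside the fold limit on both sides. With 1 library left out, the unadjusted p of edgeR ran from 0.0317 to 0.105 and stayed under 0.05 in 2 of 6 fits.

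P2rx2 encodes the partner with which P2X3 forms slowly desensitizing heteromeric channels, at chr12:52397792-52401015 on the plus strand. Its levels were 3.72, 2.68 and 2.85 FPKM in CCI 1, 2 and 3 and 2.35, 2.72 and 2.31 FPKM in sham 1, 2 and 3. CCI 1 alone was clearly higher than the rest, and CCI 2 lay below sham 2. The log2 fold change of 0.31 (SE 0.17, 95% confidence interval -0.09 to 0.72, unadjusted p = 0.108) was not called, and the interval leaves room for a change past the fold limit. Without CCI 1 it was 0.15 (unadjusted p = 0.337).

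**Figure D2:**
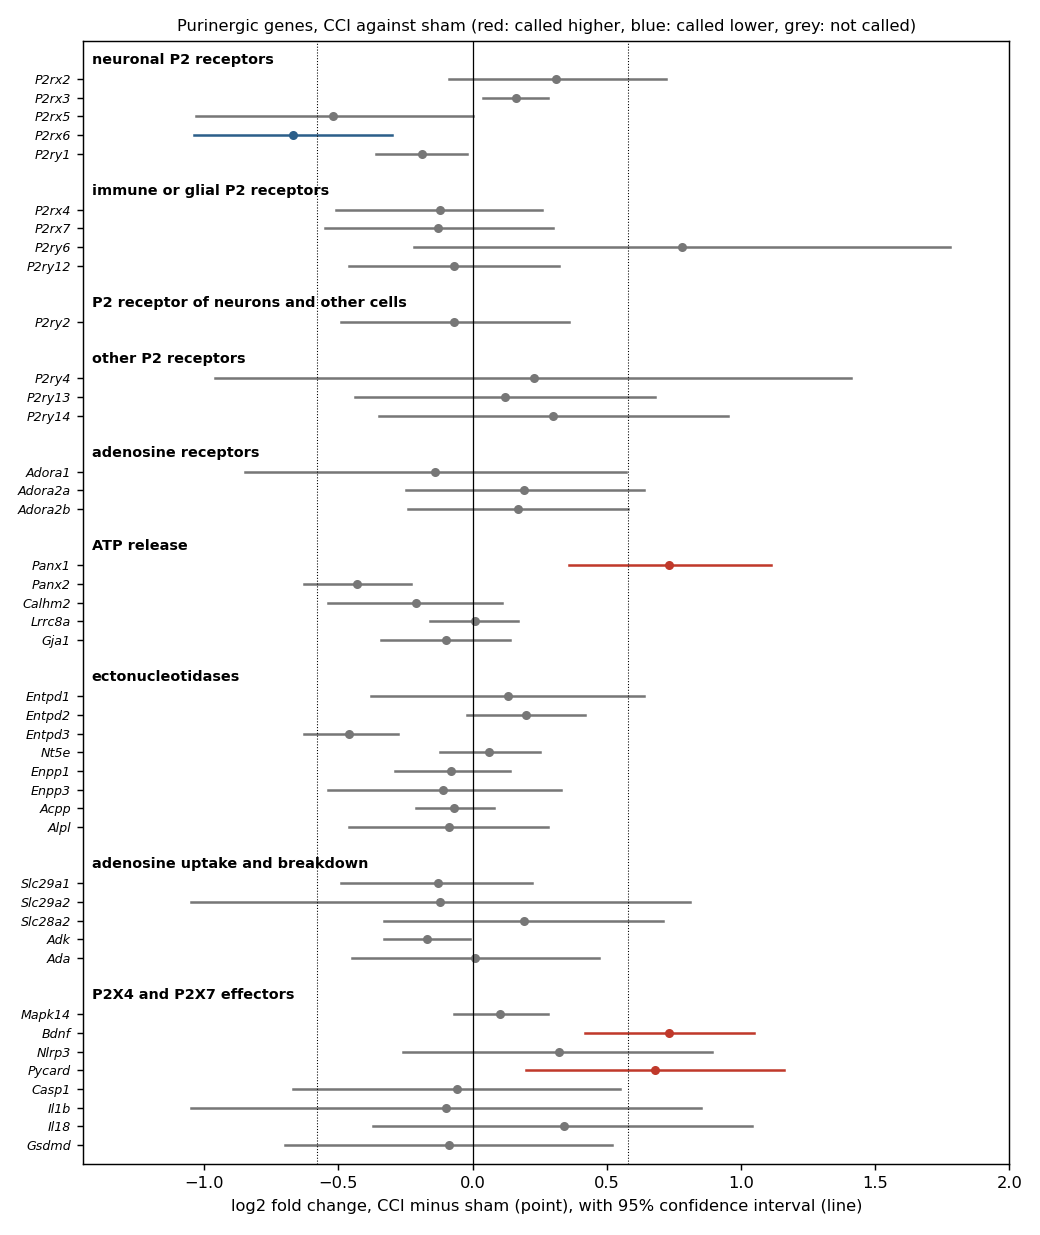
Log2 fold change of CCI against sham for the 10 P2 receptors and for the other purinergic genes tested, grouped by list, with 95% confidence intervals as lines and the fold limits of 0.58 as dotted lines. P2rx6 is the only receptor in blue (called lower), at -0.67, and Panx1, Bdnf and Pycard are the genes in red (called higher), at 0.73, 0.73 and 0.68.

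Because P2rx3 was higher and P2rx6 lower in the CCI libraries, the make-up of the P2X transcripts was described as shares of their summed FPKM, a choice made after the values were seen. P2rx3 made up 80.0%, 78.5% and 77.9% of the P2X sum in CCI 1, 2 and 3 and 71.1%, 73.7% and 74.4% in sham 1, 2 and 3. P2rx6 made up 4.25%, 5.15% and 6.09% in CCI and 7.84%, 8.57% and 9.25% in sham libraries. Neither pair of ranges overlapped, while the summed P2X level itself did, at 115 ± 4.04 FPKM in CCI and 109 ± 2.65 FPKM in sham libraries (SD, n = 3 each). The ratio of P2rx3 to P2rx6 was 18.8, 15.2 and 12.8 in CCI 1, 2 and 3 and 9.08, 8.59 and 8.04 in sham 1, 2 and 3. By contrast the ratio of P2rx3 to P2rx2, its best known partner, overlapped between the groups, at 29.8 ± 4.65 and 32.5 ± 2.23 (SD, n = 3 each). Shares are of transcripts per length and say nothing about the subunits of a channel.

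**Figure D3:**
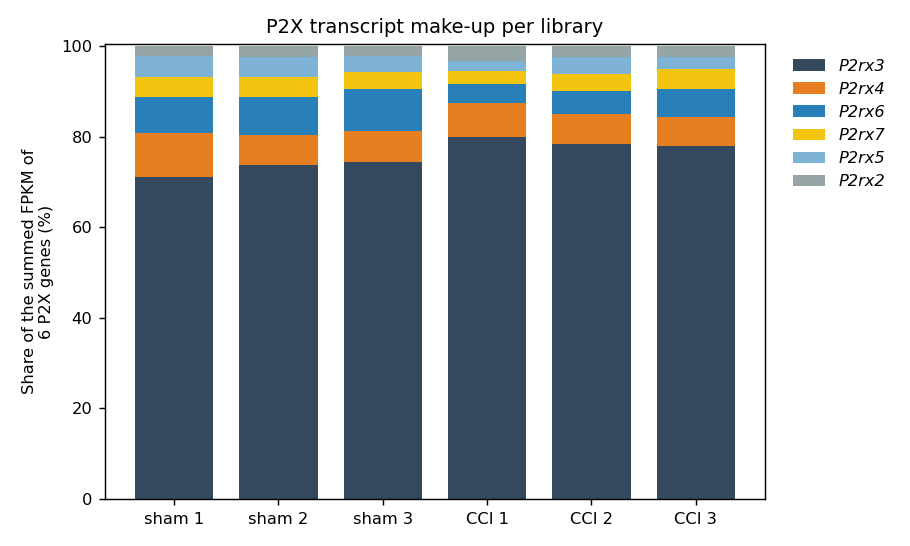
Share of each of the 6 P2X genes in their summed FPKM (%), 1 stacked bar per library. The P2rx3 segment reaches 77.9% to 80.0% in CCI and 71.1% to 74.4% in sham libraries, and the P2rx6 segment is 4.25% to 6.09% against 7.84% to 9.25%.

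The 4 receptors best known from immune cells and glia included 0 called in either direction, 0 with an unadjusted p under 0.05 and 0 whose groups did not overlap, beside 17.3% of all rows whose groups did not overlap. P2rx4, the ATP channel of macrophages and microglia with a role in neuropathic pain, lies at chr12:39308025-39325673 on the minus strand. Its levels were 8.45, 7.27 and 7.81 FPKM in CCI 1, 2 and 3 and 10.7, 7.29 and 7.41 FPKM in sham 1, 2 and 3. Sham 1, the library with the muscle markers, stood above the other 5 libraries. Its log2 fold change was -0.12 (SE 0.16, 95% confidence interval -0.51 to 0.26, unadjusted p = 0.464), and without sham 1 it was 0.07.

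P2rx7, the channel of macrophages and glia known for opening a large pore and activating the inflammasome, lies 27939 bases from P2rx4, at chr12:39353613-39396042 on the minus strand. Its levels were 3.32, 3.97 and 5.29 FPKM in CCI 1, 2 and 3 and 4.92, 4.78 and 3.88 FPKM in sham 1, 2 and 3. The lowest and the highest of the 6 values were both CCI libraries. The log2 fold change was -0.13 (SE 0.18, 95% confidence interval -0.55 to 0.30, unadjusted p = 0.501). The spread of P2rx7 within the groups ran beside that of the 4 Schwann cell markers, whose sum was 2470, 2740 and 3480 FPKM in CCI 1, 2 and 3 and 3500, 3180 and 3090 FPKM in sham 1, 2 and 3. In both measures CCI 1 lay below all of the sham libraries and CCI 3 above CCI 2, and 0 of the 4 Schwann cell markers were called. The part of Schwann cell content in the P2rx7 values was not tested. P2rx7 overlaps Ift81 on the opposite strand by 14749 bases, and Ift81 had a log2 fold change of -0.18 (unadjusted p = 0.190).

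P2ry6, the UDP receptor of phagocytes, was the scarcest receptor and the most variable, at chr1:165972440-165997751 on the minus strand. It received 212, 173 and 69 reads in CCI 1, 2 and 3, against 82, 111 and 80 reads in sham 1, 2 and 3, or 0.964, 0.795 and 0.337 FPKM against 0.342, 0.510 and 0.351 FPKM. CCI 1 and CCI 2 were above every sham library and CCI 3 was below them all. The mean was 0.699 FPKM in the CCI and 0.401 FPKM in the sham group, so P2ry6 passed the filter of 0.5 FPKM only through its CCI values. Without a filter edgeR gave the same log2 fold change of 0.78 (unadjusted p = 0.102). The log2 fold change of 0.78 (SE 0.42, 95% confidence interval -0.22 to 1.78, unadjusted p = 0.106) was the largest positive value of the 10 and was not called. Without CCI 3 it was 1.11 (unadjusted p = 0.00845) and P2ry6 was called higher, whereas without CCI 1 it was 0.47 (unadjusted p = 0.324). With limma on log2(FPKM + 1), which shrinks the change of low genes, it was 0.26 (unadjusted p = 0.255). The macrophage marker sum was 37.1, 32.8 and 26.9 FPKM in CCI 1, 2 and 3, so its lowest CCI value fell in the same library as that of P2ry6, and the part of macrophage content in the P2ry6 values was not tested.

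P2ry12, the Gi-coupled ADP receptor of platelets and microglia, lies at chr2:149441598-149444548 on the minus strand. Its levels were 2.59, 2.61 and 2.04 FPKM in CCI 1, 2 and 3 and 2.67, 2.47 and 2.36 FPKM in sham 1, 2 and 3. These ranges overlapped, with a log2 fold change of -0.07 (SE 0.16, 95% confidence interval -0.46 to 0.32, unadjusted p = 0.687). Platelet and megakaryocyte markers were low, at a sum of 1.91 to 4.45 FPKM in CCI and 1.96 to 3.55 FPKM in sham libraries for 4 genes. Of these only Pf4 passed the filter and was tested, and it was not called. The P2ry12 row lies wholly inside Med12l on the opposite strand, and since no source used here states whether counting used strand, reads of Med12l may be included. Med12l itself had a log2 fold change of -0.26 (SE 0.07, unadjusted p = 0.00667) with every CCI library below every sham library.

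P2ry2, a Gq-coupled receptor for ATP and UTP found on sensory neurons and on satellite glia, lies 33459 bases from P2ry6, at chr1:166031211-166045581 on the minus strand. Its levels were 3.35, 3.64 and 4.71 FPKM in CCI 1, 2 and 3 and 4.34, 4.47 and 3.32 FPKM in sham 1, 2 and 3. As for P2rx7, CCI 3 was the highest library and the groups overlapped. CCI and sham differed by a log2 fold change of -0.07 (SE 0.18, 95% confidence interval -0.49 to 0.36, unadjusted p = 0.711). For P2rx7, P2ry12 and P2ry2 the 95% confidence intervals lie inside the fold limits of 0.58 in both directions, as they do for P2rx4.

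**Figure D4:**
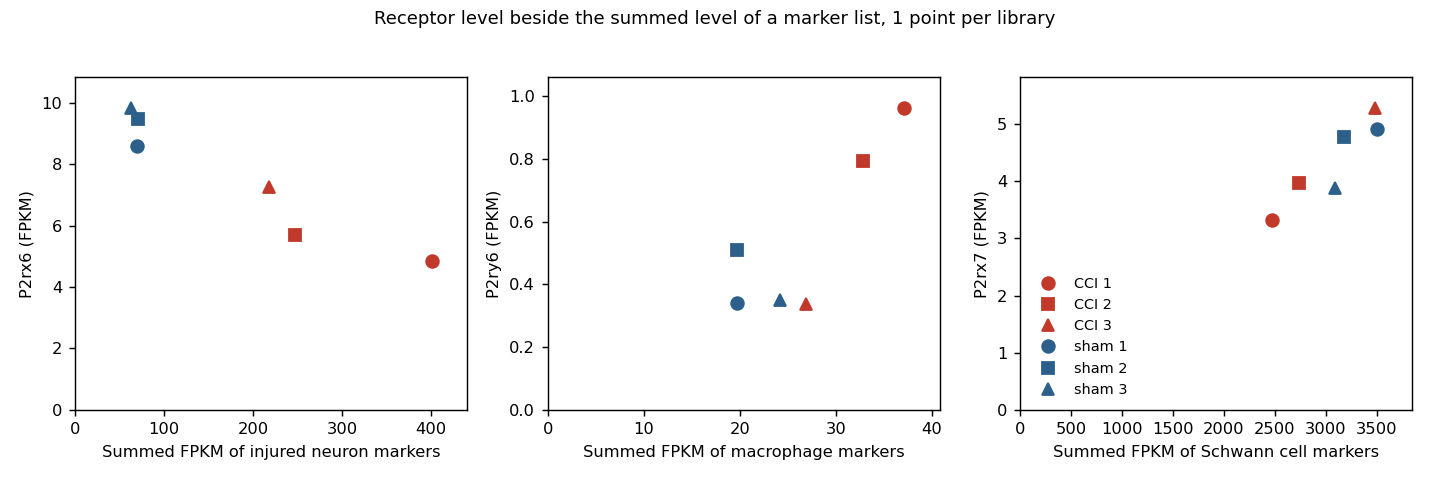
FPKM of P2rx6, P2ry6 and P2rx7 in each library against the summed FPKM of injured neuron, macrophage and Schwann cell markers, 1 point per library, pairs chosen after their values were seen. Within the CCI group P2rx6 is lowest (4.84) where the injured neuron sum is highest (401), P2ry6 is highest (0.964) where the macrophage sum is highest (37.1), and P2rx7 is lowest (3.32) where the Schwann cell sum is lowest (2470).

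The receptors were also expressed relative to the mean log2 level of a marker list, with an exact two-sided permutation test of 3 against 3 libraries, whose smallest possible p is 0.1. Relative to the 7 neuronal markers P2rx6 was lower by a log2 difference of -0.66 and P2rx3 higher by 0.18, each with the groups apart and an exact p of 0.1. P2rx2 relative to the same markers was higher by 0.30 (exact p = 0.1). With the median of the neuronal markers in place of their mean, these differences were -0.29 for P2rx6 (exact p = 0.2), 0.55 for P2rx3 and 0.67 for P2rx2. P2ry1 relative to them differed by -0.18 (exact p = 0.1), and by 0.19 when the median of the markers was used. In every library that median was the level of Snap25 (log2 fold change -0.39), so the median-based differences are relative to Snap25 alone. Of the 8 macrophage markers 3 were called higher in CCI and 5 were not called. Relative to the 8, P2rx4 differed by -0.58 and P2ry12 by -0.55, each with an exact p of 0.1. P2rx7 differed by -0.62 with an exact p of 0.200, and P2ry6 by 0.10 with an exact p of 0.900. Relative to the 5 satellite glia markers the differences were -0.04 for P2rx4, -0.07 for P2rx7 and -0.00 for P2ry12, or 0.37, 0.34 and 0.41 with the median of the markers. That median was the level of Fabp7 (log2 fold change -0.55), or of Cdh19 in CCI 3. P2ry6 differed from the satellite glia markers by 0.64 (exact p = 0.2). The median log2 fold change was 0.03 for the satellite glia markers and 0.43 for the macrophage markers. A receptor that changed little lies nearer to the former by arithmetic, so these differences do not tell which cells hold P2rx4, P2rx7 and P2ry12. None of the exact tests could pass 0.05.

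The genes whose profiles lay nearest to the receptors with the largest positive and negative log2 fold change were found among 12667 protein-coding genes by the root mean square difference of centred log2 CPM over the 6 libraries. For P2rx6, whose own spread by that measure was 0.386, they were RGD1307461 at 0.0429, Cx3cl1, which encodes the chemokine fractalkine, at 0.0634 and Tll1, which encodes a metalloprotease, at 0.0798. For P2ry6, with a spread of 0.602, they were Aldh1l2 at 0.188, AABR07026654 at 0.188 and Mchr1 at 0.207. The distances to P2rx6 were thus smaller than those to P2ry6, whose counts were the lowest of the receptors.

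The remaining genes of purinergic signalling, 40 in 6 lists of which 32 passed the filter, held 3 called higher and 0 called lower, again against 2.57% and 1.26% of all rows. After Benjamini-Hochberg adjustment over all rows edgeR called 0 of the 32, against 0.0938% of all rows. An unadjusted p under 0.05 was reached by 6 of the 32, against 10.7% of all rows. Their median log2 fold change was 0.01, that of all rows tested. The genes called higher were Panx1, Bdnf and Pycard.

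Panx1, which encodes a channel that releases ATP, was at 7.66, 5.59 and 5.42 FPKM in CCI 1, 2 and 3 and 3.58, 3.47 and 4.06 FPKM in sham 1, 2 and 3, so the groups were apart. Its log2 fold change was 0.73 (SE 0.16, unadjusted p = 0.00280), or 0.55 without CCI 1, when it was no longer called. Bdnf, the neurotrophin that P2X4-stimulated microglia release, was at 6.19, 5.09 and 4.55 FPKM in CCI and 3.31, 3.28 and 2.82 FPKM in sham libraries, a log2 fold change of 0.73 (SE 0.13, unadjusted p = 0.00106). Panx1 and Bdnf were among the genes that the study picked from these libraries for follow-up, so they are not independent evidence. Pycard, the adaptor of the inflammasome that P2X7 activates, was at 1.84, 2.01 and 1.95 FPKM in CCI and 1.26, 1.34 and 0.970 FPKM in sham libraries, a log2 fold change of 0.68 (SE 0.20, unadjusted p = 0.0127), and it was not called without sham 3, at 0.56, or with limma on log2(FPKM + 1), at 0.43.

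By list, ATP release held 1 called of 5 tested genes, the P2X4 and P2X7 effectors 2 of 8, and the other P2 receptors, adenosine receptors, ectonucleotidases and adenosine uptake and breakdown 0 of 3, 0 of 3, 0 of 8 and 0 of 5. The most abundant gene of each list was not called. These were P2ry14 at a log2 fold change of 0.30, Adora1 at -0.14, Lrrc8a at 0.01, Entpd2 at 0.20, Adk at -0.17 and Mapk14 at 0.10. The Entpd2 row joined Entpd2 with Npdc1, so its value is not of Entpd2 alone. Below the fold limit but with an unadjusted p under 0.05, and named after their values were seen, were Adk (unadjusted p = 0.0442), Panx2, a relative of Panx1, at -0.43 (unadjusted p = 0.00173) and Entpd3, an ectonucleotidase of sensory neurons, at -0.46 (unadjusted p = 0.000507). Panx1 was among 4 of the 32 genes with every CCI library above every sham library, an order found for 8.63% of all rows. Panx2 was among 4 of the 32 with every CCI library below every sham library, against 8.70% of all rows.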

How the data were processed

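Ribosomal RNA-depleted libraries of the ipsilateral L4 to L6 DRG of 3 CCI and 3 sham rats were analysed, grouped by surgery as the labels give it. The submitters' processing notes name HISAT2 2.0 and StringTie 1.3.0, and the paper names the genome V101. Use of strand in counting is not given in the sources used here, although the libraries were made with dUTP. The authors deposited whole-number read counts per gene row without normalization, and FPKM values, which are those counts divided by the library total and by a length that, worked back from the values, is shorter than the genomic span of the row. Rows with 0 counts are listed at 0.0001 FPKM. Rows without a symbol held 5.37% to 5.72% of the counts, and 0 value columns were left unused.

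Counts of 26663 rows, those averaging 0.5 FPKM or more, were fitted with edgeR 4.0.16 (glmQLFit and glmQLFTest, TMM factors 0.988 to 1.01, trended prior with 2.52 prior degrees of freedom), with Benjamini-Hochberg adjustment over all rows. The filter used FPKM and the tests used counts. A call required an unadjusted p below 0.05 and a log2 fold change reaching 0.58 in either direction, the limits of the study. CPM values use the TMM-scaled totals in fits and the column totals for the detection limit of 3 counts. Marker-relative levels are differences of log2(FPKM + 0.1), tested with exact permutation. With totals of 75423546 to 87615743 counts, receptors had 69 to 31673 counts per library. Within groups, library pairs differed beyond sampling noise (chi-square over degrees of freedom 53.9 to 78.5), so none was another library sequenced again. That check cannot tell separate rats from shared or pooled tissue. Libraries were treated as separate rats, as the methods state, and p-values measure the spread between the 3 libraries per group. The labels give no batch or date.

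All 10 receptors are named. Of the other purinergic lists, the genes called and the most abundant gene of each list are named. For the receptors with the largest positive and negative log2 fold change, the 3 nearest profiles are named, as are rows that overlap or share a receptor locus. The receptors, lists and tests were chosen with earlier results of these data known. Alternatives were limma 3.58.1 on log2(FPKM + 0.1) and log2(FPKM + 1), DESeq2 1.42.0, RLE size factors, a filter at 1 FPKM, no filter, protein-coding rows alone, a prior without trend, the replicate number as a block and fits lacking each library in turn. The tests were tried on simulated counts. Promoters came from RefSeq (GRCr8) and protein sequences were not used here. R 4.3.3 and Python 3.11.15 with pandas 2.3.3, numpy 2.4.6, scipy 1.17.1 and matplotlib 3.10.9 were used.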

Additional observations from a re-analysis of the deposited data

How the results depend on the processing

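The P2rx6 decrease was called in each of the 9 alternatives that kept all 6 libraries, with log2 fold changes of -0.68 to -0.59, and in 5 of the 6 fits that left out 1 library (-0.84 to -0.54), the exception being the fit without CCI 1. With 1 library left out, 0 to 1 receptors were called higher and 0 to 2 lower, of which 0 lower came without CCI 1, 2 lower without CCI 2 and without sham 3, and 1 higher without CCI 3. DESeq2 called 1 receptor at an adjusted p under 0.05, and 751 of all rows against 25 in edgeR. Over all rows, limma on log2(FPKM + 1) gave 410 higher and 161 lower, and protein-coding rows alone 353 higher, 115 lower and 76 adjusted. The block for the replicate number gave 617 higher, 318 lower and 0 adjusted rows, and under it P2rx6 was still called (-0.68, unadjusted p = 0.00213). Same-numbered libraries deviated with correlations of 0.031, -0.035 and -0.048, and other-numbered libraries with -0.026 to 0.06. These values gave no sign of a pairing by number, but with 3 libraries a group they cannot exclude one. P2ry6 has no value under a mean FPKM of at least 1. The other purinergic genes called, 3 higher and 0 lower, numbered 2 higher with limma on log2(FPKM + 1), without CCI 1 and without sham 3, and 3 in the other 12 alternatives, with 0 lower in all 15.

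Small fold changes turned sign when a library was left out. P2rx4 ranged from -0.22 to 0.07, P2rx7 from -0.32 to 0.01, P2ry12 from -0.13 to 0.04 and P2ry2 from -0.22 to 0.03, with P2rx4 at 0.07 without sham 1, P2rx7 at 0.01 without CCI 1, P2ry12 at 0.04 without CCI 3 and P2ry2 at 0.03 without CCI 1 and 0.01 without sham 2. With the median of the markers in place of their mean, the marker-relative difference became 0.19 for P2ry1 and 0.31 for P2ry2 over neurons, 0.37 for P2rx4, 0.34 for P2rx7, 0.41 for P2ry12 and 0.41 for P2ry2 over satellite glia, and -0.08 for P2ry6 over macrophages. With log2(FPKM + 1) it became -0.11 for P2ry6 over macrophages, 0.01 for P2ry12 and 0.00 for P2ry2 over satellite glia. With 1 library left out, the ranges that crossed 0 were, over satellite glia, -0.12 to 0.14 for P2rx4, -0.34 to 0.14 for P2rx7, -0.05 to 0.04 for P2ry12 and -0.23 to 0.16 for P2ry2, over neurons -0.21 to 0.06 for P2ry2, and over macrophages -0.06 to 0.36 for P2ry6. Over neurons the median was the level of Snap25 in every library, and over satellite glia that of Fabp7, or of Cdh19 in CCI 3. The cause of the other changes was not tested. Depth limits P2ry6 most, at 69 to 212 counts per library, and with 3 rats a group no exact test can go below 0.1.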
